A study of Mus musculus with 4 samples.

Results

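The 30 genes described here encode the B-cell antigen receptor, other proteins that identify B cells, and proteins of antibody-secreting plasma cells. They were chosen by name from 55416 gene IDs in the count table, all 30 were found, and all 30 passed the filter on low counts. RNA came from myeloid-derived suppressor cells (MDSCs), immature myeloid cells that dampen T-cell responses. They were obtained by flow sorting of ascites, drawn 14 days after mice had been given the EL4 T-cell lymphoma line. The wild-type (WT) group and the Sphk2 knockout (Sphk2 KO) group, which lacks the lipid kinase sphingosine kinase 2, each had 2 libraries, and both groups carried the EL4 tumor. The sources used here do not name the sort markers, the knockout allele, the strain, sex or age of the mice, or any pooling. Since no label says that replicates are separate mice, the spread behind each p-value may be technical.

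A B cell recognises antigen through a membrane antibody, made of heavy chains (Ighm, Ighd) and light chains (Igkc or lambda), which signals through the paired chains Cd79a and Cd79b. The transcription factors Ebf1 and Pax5 set and hold B-cell identity. A plasma cell shuts down much of that programme and secretes antibody, and Jchain links antibody units into polymers. Myeloid cells do not rearrange antibody genes, whereas 10 of the 30 genes (Cd37, Cd72, Blnk, Pou2f2, Cd55, Ralgps2, Bach2, Siglecg, Mzb1 and Spib) are also known from cells outside the B lineage. The other 20 are called B-lineage genes below, a label that does not exclude expression in other cells.

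Each library held 14087613 to 24685576 counts, and Sphk2 KO replicate 2 was the deepest. Sphk2 stood at 54.7 and 53.6 CPM (each count scaled to its library's TMM-adjusted total) in WT replicates 1 and 2. It stood at 4.06 and 4.44 CPM in Sphk2 KO replicates 1 and 2, with an adjusted p of 0.000127 in edgeR's quasi-likelihood test. Of genes listed here as MDSC and neutrophil markers, S100a8, an alarmin subunit of neutrophils, stood at 3948 to 9328 CPM. The integrin chain Itgam (CD11b) stood at 180.7 to 258.0 CPM. Among all 16566 tested genes, 18 (0.109%) were called at an adjusted p under 0.05, 7 higher and 11 lower in Sphk2 KO.

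Promoter sequence is shown here because Pou2f2, Pou2af1 and Ebf1, which are among the 30 genes, act on B-cell promoters through known motifs. Pou2f2 binds the octamer ATGCAAAT together with its co-activator Pou2af1, and Ebf1 binds a core written here as CCCNNGGG. Both were searched on both strands in the 250 bases before gene starts, in RefSeq sequence of build GRCm38.p6. No window of the 30 genes held both motifs. Entries existed for 22 of the 30 genes (27 windows), and not for Blk, Igkc, Ms4a1, Mzb1, Cxcr5, Cd79b, Ighm and Ighd. The octamer lay in 2 of 27 windows (7.41%), those of Vpreb3 and Blnk, against 526 of 32851 windows of all genes (1.60%). The Ebf1 core lay in 4 of 27 windows (14.8%), those of Bank1, Cd22, Cd55 and Spib, against 3882 of all windows (11.8%). Printed below are the 150 bases before the starts of the octamer genes and of Cd22, all 5′ to 3′ on the gene's strand, with the motif in capitals. They lie at chr10:75948150-75948299 (plus strand), chr19:40994222-40994371 (minus strand) and chr7:30879029-30879178 (minus strand). The octamer appears there in its reverse complement ATTTGCAT.
Vpreb3: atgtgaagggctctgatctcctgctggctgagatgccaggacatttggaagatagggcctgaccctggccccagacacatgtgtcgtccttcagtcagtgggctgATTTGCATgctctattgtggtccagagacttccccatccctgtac
Blnk: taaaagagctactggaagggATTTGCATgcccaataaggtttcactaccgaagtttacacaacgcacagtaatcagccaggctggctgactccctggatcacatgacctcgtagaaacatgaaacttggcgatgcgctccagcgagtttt
Cd22: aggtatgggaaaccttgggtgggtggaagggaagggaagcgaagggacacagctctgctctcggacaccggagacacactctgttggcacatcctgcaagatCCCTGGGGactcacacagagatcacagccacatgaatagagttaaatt
The far end of the octamer lay 45 bases before the Vpreb3 start and 130 bases before the Blnk start. A match is a description of letters, and occupancy by either factor was not measured.

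In sorted MDSCs the 30 genes summed to 2991 and 2840 CPM in WT replicates 1 and 2 and to 2762 and 1733 CPM in Sphk2 KO replicates 1 and 2. As raw counts they took 0.341%, 0.279%, 0.270% and 0.158% of all counts, in that order. Both Sphk2 KO libraries lay below both WT libraries for 25 of the 30 genes, a pattern that 3766 of all tested genes (22.7%) showed. That share is the reference for the same pattern by role below. The median log2 fold change of the 30 genes, Sphk2 KO minus WT, was -0.68 against -0.001 for all tested genes, and 10.2% of tested genes lay below that median. Estimates were negative for 28 genes and positive for Cd37 and Jchain, both of which turned negative with library size alone as the scaling. In bulk RNA, fewer B cells and less RNA per B cell cannot be told apart.

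No gene of the 30 was called by edgeR's quasi-likelihood test, with adjusted p from 0.266 to 0.959, nor by DESeq2 or limma-voom. At an unadjusted p under 0.05, 23 of 30 were lower and 0 higher in edgeR, where 1237 of all tested genes (7.47%) were lower and 507 higher. With library size alone as the scaling, 1629 of all tested genes were lower and 224 higher at that threshold. DESeq2 counted 20 of the 30 genes lower, beside 837 of 29707 genes tested. Limma-voom counted 23, beside 1387 of 16566, with 0 of the 30 genes higher in either tool. Sphk2 KO replicate 2 was the lowest library for 27 of the 30 genes, and for 32.0% of all tested genes. Without that library the median of the 30 genes was -0.43. The median was -0.97 without Sphk2 KO replicate 1, -0.70 without WT replicate 2 and -0.64 without WT replicate 1. With no filter on low counts, 12 of the 30 were called, beside 615 of all 29707 genes tested.

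**Figure D1:**
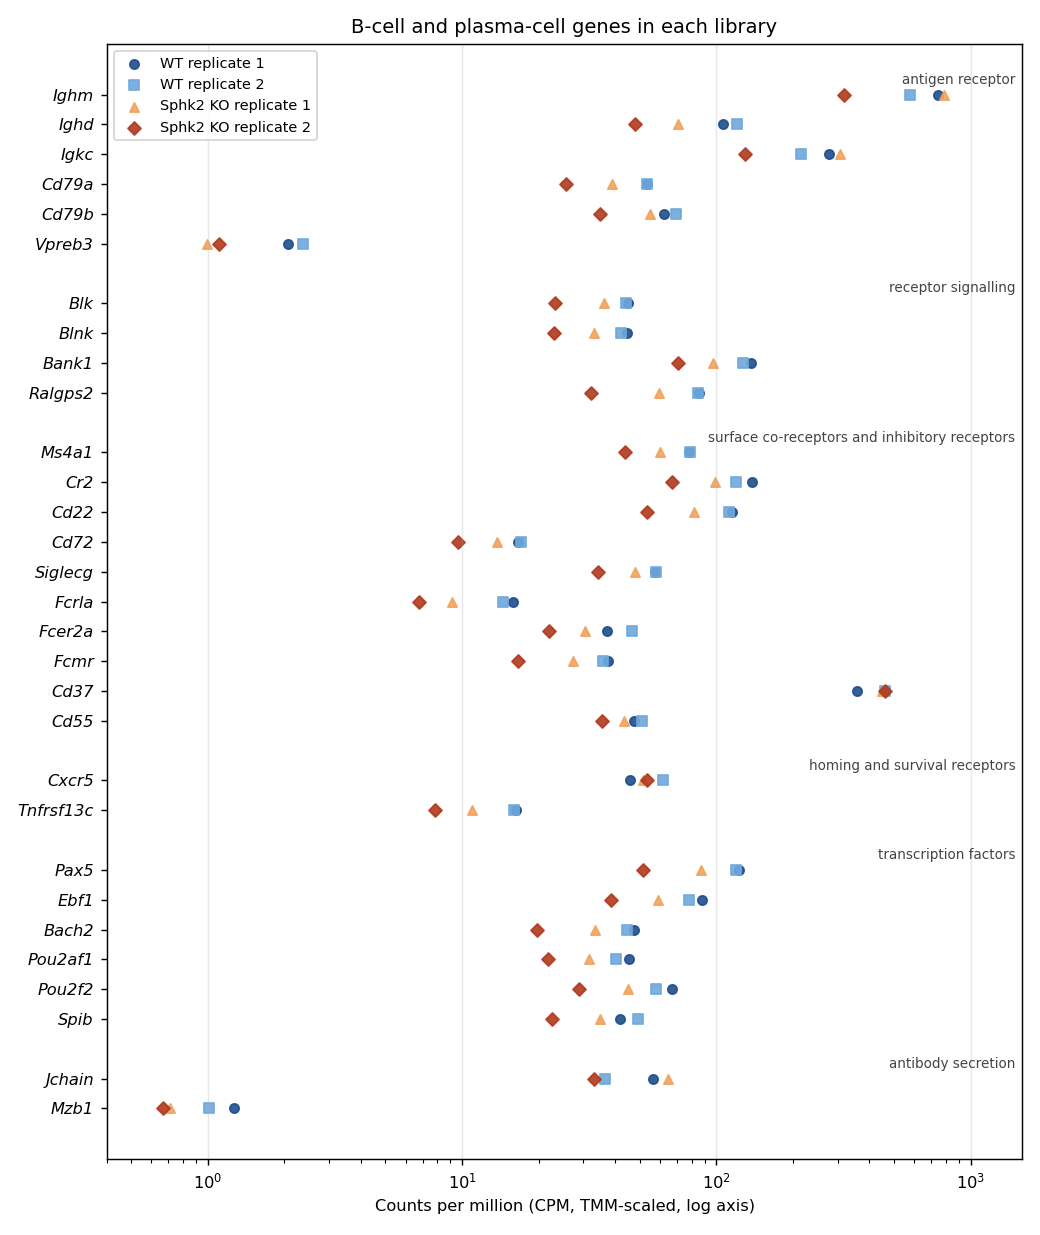
CPM of each of the 30 genes (log axis) in each of the 4 libraries, with genes grouped by role and no error bars because each point is 1 library. Sphk2 KO replicate 2 (dark red diamonds) is the leftmost point in 27 of 30 rows, and the 2 genotypes overlap for Ighm, Igkc, Jchain, Cd37 and Cxcr5.

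Among the 6 antigen-receptor genes, Ighm, the heavy chain of IgM, stood at 743.6 and 577.4 CPM in WT replicates 1 and 2 and at 783.2 and 317.6 CPM in Sphk2 KO replicates 1 and 2. The groups overlapped, with the highest and the lowest library both of the Sphk2 KO genotype. The WT mean was 660.5 ± 117.5 CPM (SD, n = 2) and the Sphk2 KO mean 550.4 ± 329.3 CPM (SD, n = 2). Igkc, the kappa light chain, followed the same order at 277.6 and 216.1 CPM in WT and 306.8 and 130.1 CPM in Sphk2 KO. Their log2 fold changes were -0.26 (SE 0.38) and -0.18 (SE 0.35), smaller than their errors.

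Ighd, the IgD heavy chain of naive B cells, stood at 105.9 and 120.8 CPM in WT and at 70.4 and 48.0 CPM in Sphk2 KO replicates 1 and 2. The groups did not overlap, and the log2 fold change was -0.94 (SE 0.20, edgeR adjusted p = 0.266). Cd79a, a signalling chain of the receptor, stood at 53.4 and 53.2 CPM in WT and at 39.0 and 25.6 CPM in Sphk2 KO. Its WT libraries differed by little (53.3 ± 0.114 CPM, SD, n = 2), whereas Sphk2 KO libraries spread widely (32.3 ± 9.43 CPM, SD, n = 2). The estimate for Cd79a was -0.73 (SE 0.21, edgeR adjusted p = 0.401). Cd79b, its partner chain, had 62.2 and 69.4 CPM in WT and 54.7 and 34.9 CPM in Sphk2 KO, again without overlap. Vpreb3, which helps assemble the receptor in the endoplasmic reticulum, was rare, at 39 and 33 counts for the WT pair against 14 and 25 for the Sphk2 KO pair. Its estimate of -1.06 (SE 0.38) was the most negative of the 30 and among the least precise.

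All 4 receptor-signalling genes were lower in both Sphk2 KO libraries than in both WT libraries. Blk, a Src-family kinase, had 45.1 and 44.2 CPM in WT and 36.0 and 23.2 CPM in Sphk2 KO replicates 1 and 2. The adaptor Blnk, whose promoter is printed above, had 44.7 and 42.2 CPM against 33.2 and 22.9 CPM. In each of these genes Sphk2 KO replicate 2 was the lowest library and replicate 1 lay between it and WT. Bank1, a scaffold protein, had 137.1 and 127.8 CPM in WT and 97.5 and 71.0 CPM in Sphk2 KO. Ralgps2, a Ral exchange factor, had 85.8 and 85.1 CPM in WT and 59.6 and 32.3 CPM in Sphk2 KO, with a log2 fold change of -0.90 (SE 0.26). The range over these 4 genes was -0.90 to -0.60.

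Of 10 surface co-receptors and inhibitory receptors, 9 were lower in both Sphk2 KO libraries and Cd37 was not. Cd22, an inhibitory receptor for sialic acid, had 115.6 and 111.8 CPM in WT and 81.7 and 53.3 CPM in Sphk2 KO replicates 1 and 2, a log2 fold change of -0.76 (SE 0.21). Ms4a1, which encodes CD20, had 77.8 and 79.1 CPM against 59.8 and 43.6 CPM. Cr2, the complement receptor of mature B cells, had 138.3 and 119.5 CPM against 98.5 and 67.0 CPM. For these 3 genes the Sphk2 KO libraries lay further apart than the WT libraries. Fcrla, an intracellular Fc receptor-like protein, had 15.9 and 14.4 CPM in WT and 9.12 and 6.75 CPM in Sphk2 KO. Its estimate was -0.94 (SE 0.24), and edgeR gave an adjusted p of 0.373. Fcer2a, the low-affinity IgE receptor CD23, had 37.1 and 46.7 CPM against 30.5 and 21.9 CPM. Fcmr, a receptor for IgM, had 37.5 and 35.7 CPM against 27.2 and 16.6 CPM. These 3 receptors also showed no overlap between genotypes.

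Siglecg, an inhibitory sialic-acid receptor, had 57.4 and 57.9 CPM in WT and 47.8 and 34.2 CPM in Sphk2 KO replicates 1 and 2. Cd72, a further inhibitory receptor, had 16.6 and 17.1 CPM against 13.7 and 9.68 CPM, and its exons overlap those of Tesk1 on the opposite strand. Cd55, a complement regulator, had 47.5 and 51.0 CPM against 43.5 and 35.5 CPM, a log2 fold change of -0.32 (SE 0.16). Cd55 was the smallest of the negative estimates in this role, and 7.55% of its 75-base windows also occur in its copy Cd55b. Cd37, a tetraspanin of leukocytes, stood at 358.3 and 462.1 CPM in WT and 450.0 and 460.1 CPM in Sphk2 KO. Its lowest library was WT replicate 1 and its estimate was 0.15 (SE 0.20).

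The homing and survival receptors did not share a pattern. Cxcr5, the chemokine receptor that draws B cells into follicles, had 45.7 and 61.9 CPM in WT and 51.6 and 53.5 CPM in Sphk2 KO replicates 1 and 2. Its WT values enclosed the Sphk2 KO values, and the estimate was -0.032 (SE 0.18). Tnfrsf13c, the receptor for the survival factor BAFF, had 16.4 and 15.9 CPM in WT and 11.0 and 7.86 CPM in Sphk2 KO, a log2 fold change of -0.79 (SE 0.24) without overlap.

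All 6 transcription factors were lower in both Sphk2 KO libraries, with log2 fold changes from -0.81 to -0.67 and edgeR adjusted p from 0.400 to 0.424. Pax5, the keeper of B-cell identity, had 122.3 and 120.0 CPM in WT and 87.0 and 51.5 CPM in Sphk2 KO replicates 1 and 2. Its WT mean was 121.1 ± 1.58 CPM and its Sphk2 KO mean 69.2 ± 25.1 CPM (SD, n = 2 each). Ebf1, which acts before Pax5 in development, had 87.7 and 78.3 CPM against 58.9 and 38.5 CPM. These early identity factors kept the order WT, then Sphk2 KO replicate 1, then replicate 2. Bach2, a repressor of plasma-cell fate, had 47.6 and 44.4 CPM against 33.3 and 19.8 CPM. The octamer factor Pou2f2 had 67.2 and 58.1 CPM against 44.9 and 28.8 CPM, and its co-activator Pou2af1 had 45.5 and 40.3 CPM against 31.6 and 21.8 CPM. Spib, an Ets factor, had 42.0 and 49.2 CPM against 35.04 and 22.5 CPM.

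The 2 antibody-secretion genes differed in level. Jchain had 56.2 and 36.6 CPM in WT and 64.8 and 33.1 CPM in Sphk2 KO replicates 1 and 2, so replicate 1 was the higher library in each genotype. The estimate was 0.067 (SE 0.32). Mzb1, a chaperone of antibody assembly, had few counts, 24 and 14 against 10 and 15. Its value is uncertain because 74.9% of its 75-base windows also occur in an overlapping gene on the same strand.

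**Figure D2:**
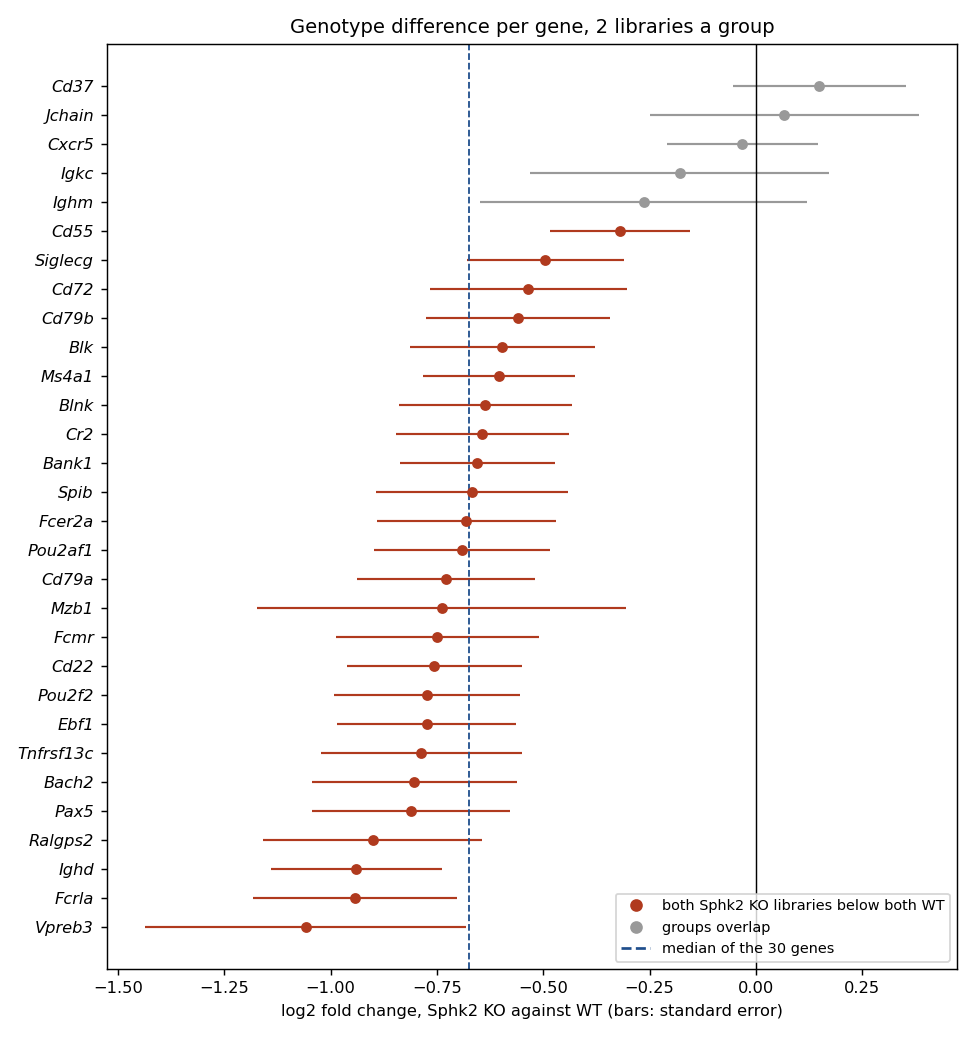
Log2 fold change, Sphk2 KO minus WT, of each of the 30 genes from edgeR, with bars of 1 standard error, in order of size, and the median of the 30 genes as a dashed line. Estimates run from -1.06 (Vpreb3) to 0.15 (Cd37), 28 of 30 lie below 0, and the 5 genes whose groups overlap are grey.

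Levels were compared between genes per kilobase of exon. Igkc, the highest, had a mean of 464 CPM per kilobase in WT and 411 in Sphk2 KO, and Ighm 350 and 292. Cd37 followed at 116 and 129 CPM per kilobase, then Ighd at 59.7 and 31.2. Cd79b had 46.0 and 31.3 CPM per kilobase and Cd79a 36.6 and 22.2. At the other end Vpreb3 had 2.59 and 1.23 CPM per kilobase and Mzb1 0.939 and 0.567. Igkc ran from 244 to 577 CPM per kilobase over the 4 libraries and Ighm from 168 to 415. Their ranges overlapped, but within each library Igkc lay above Ighm. Both lay above Cd37 (102 to 131) in every library.

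Ighm, Igkc and Jchain, which plasma cells make in bulk, were set beside the other B-lineage genes. Together the 3 summed to 1077 and 830.1 CPM in WT and to 1155 and 480.8 CPM in Sphk2 KO replicates 1 and 2, so the groups overlapped. The other 17 B-lineage genes summed to 1145 and 1141 CPM in WT and to 845.5 and 585.9 CPM in Sphk2 KO, without overlap. Of those 17, 16 were lower in both Sphk2 KO libraries, against 22.7% of all tested genes, and the median log2 fold change of the 17 was -0.73. For every 100 counts of the 17 genes, the 3 genes had 94.1, 72.7, 137.0 and 82.0 counts in WT replicates 1 and 2 and Sphk2 KO replicates 1 and 2. The difference between these sets was not tested, and the split was made with the values known. All 20 B-lineage genes together summed to 2223 and 1972 CPM in WT and 2000 and 1067 CPM in Sphk2 KO. The log2 ratio of those group means was -0.45. Leaving out Sphk2 KO replicate 2 gave -0.061, and leaving out Sphk2 KO replicate 1 gave -0.98. The 10 genes also known outside the lineage summed to 768.2 and 868.1 CPM in WT and 761.7 and 666.4 CPM in Sphk2 KO.

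Ratios within a library need no scaling between libraries, so each gene was also divided by Cd79a. Relative to Cd79a, 21 of the other 29 genes varied by less than 1.3-fold between the lowest and highest library. Cd22 had 2.16, 2.10, 2.10 and 2.08 counts per Cd79a count in WT replicates 1 and 2 and Sphk2 KO replicates 1 and 2. Pax5 had 2.29, 2.25, 2.23 and 2.01 in the same order, and Ebf1 ran from 1.47 to 1.64. These genes kept nearly fixed proportions while their CPM differed between libraries. Cd37 did not, with 6.71, 8.68, 11.6 and 18.0 counts per Cd79a count, and Cxcr5 had 0.855, 1.16, 1.33 and 2.09. Ighm had 13.9, 10.8, 20.1 and 12.4, with Sphk2 KO replicate 1 the highest. Jchain had 1.05, 0.688, 1.66 and 1.29 and Igkc 5.20, 4.06, 7.87 and 5.07. All of these ratios share the Cd79a count as divisor, which was 1008, 738, 547 and 577.

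**Figure D3:**
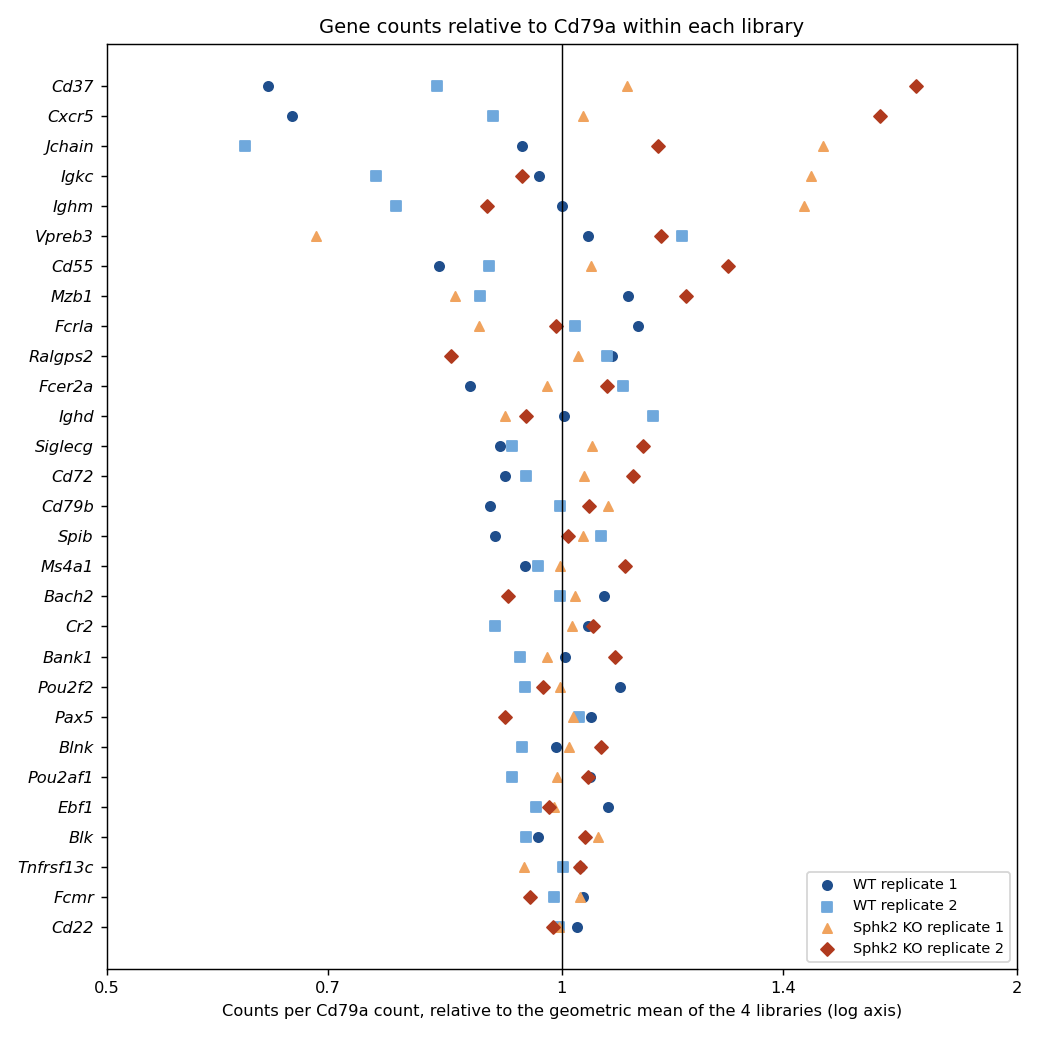
Counts of each gene per Cd79a count in the same library, divided by the geometric mean of the 4 libraries on a log axis, with 1 point per library. Cd22, Pax5 and Ebf1 lie close to 1 in all 4 libraries, whereas Cd37, Cxcr5 and Jchain spread by more than 2-fold.

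Antibody classes were read from the heavy-chain constant genes, of which each library held 8896 to 17969 counts. Shares carry exact Clopper-Pearson 95% intervals, which cover counting error only. Ighm took 78.1% (77.5 to 78.7) and 72.9% (72.1 to 73.8) of those counts in WT replicates 1 and 2, and 83.5% (82.8 to 84.1) and 80.4% (79.5 to 81.2) in Sphk2 KO replicates 1 and 2. Both Sphk2 KO shares of Ighm were above both WT shares. Ighd took 11.1% and 15.3% in WT and 7.51% and 12.1% in Sphk2 KO, so the groups overlapped. Igha, the IgA heavy chain of mucosal plasma cells, took 6.58% and 9.31% in WT and 4.33% and 5.63% in Sphk2 KO. In CPM Igha had 62.6 and 73.7 in WT and 40.6 and 22.3 in Sphk2 KO, an estimate of -1.12 (SE 0.26) with an edgeR adjusted p of 0.325. DESeq2 called it at an adjusted p of 0.0447.

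The 4 IgG genes together took 4.17% and 2.50% in WT and 4.69% and 1.85% in Sphk2 KO, so replicate 1 was the higher in each genotype. Ighg2b had 366 counts in Sphk2 KO replicate 1 against 74 in replicate 2. Ighg2c had 14.6 and 4.40 CPM in WT and 3.63 and 1.91 CPM in Sphk2 KO (edgeR adjusted p = 0.404), with WT replicate 1 far above the rest. Ighg1 had 43, 21, 65 and 1 counts in WT replicates 1 and 2 and Sphk2 KO replicates 1 and 2, so the groups overlapped. Ighe, the IgE chain, had 1 count in WT replicate 1 and 0 in the other libraries, where 3 counts would be 0.133 to 0.216 CPM. Of light-chain counts, lambda chains took 15.6% and 18.6% in WT against 13.6% and 14.0% in Sphk2 KO. The IgG genes, and likewise the lambda constant genes, resemble one another closely, so reads could be split between copies.

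**Figure D4:**
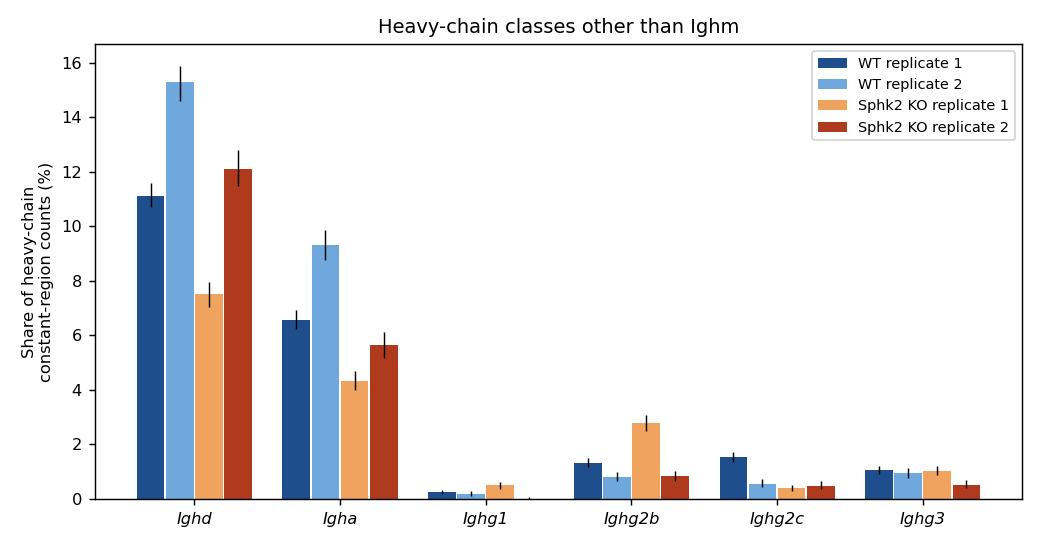
Share of heavy-chain constant-region counts (percent) taken by Ighd, Igha and each IgG gene in each library, with exact 95% intervals for counting error as bars. Ighd holds 7.51% to 15.3% and Igha 4.33% to 9.31%, and no IgG gene passes 2.78%. Ighm, left out, holds the most in every library.

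Variable segments are the parts of antibody genes that differ most between B-cell clones. Of 348 variable segments in the table, 223 and 208 had a count in WT replicates 1 and 2 and 209 and 203 in Sphk2 KO replicates 1 and 2. When every library was drawn down to 3796 segment counts, 202.8, 205.6, 198.5 and 203.0 segments were detected, in that order. The genotypes overlapped on that count. No segment took more than 5.40% of a library's segment counts. Iglv1 was the most abundant in 3 libraries (4.58% to 5.40%) and Igkv1-110 in Sphk2 KO replicate 2 (4.95%). The 10 most abundant segments took 27.6%, 28.5%, 28.9% and 31.0%. Summed segment levels were 388.3 and 296.3 CPM in WT and 396.8 and 168.6 CPM in Sphk2 KO, the same order as Ighm. Of 119 tested segments, 0 were called by edgeR or limma-voom and 1 by DESeq2. At an unadjusted p under 0.05 edgeR counted 16 lower and 2 higher, DESeq2 5 and 1, and limma-voom 24 and 2. In edgeR 7.47% of all tested genes were lower at that threshold.

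A list of 24 other B-cell genes gave a similar picture, with 22 negative and 2 positive estimates and a median log2 fold change of -0.64. Of the 24, 19 were lower in both Sphk2 KO libraries, against 22.7% of all tested genes. None was called by edgeR, DESeq2 or limma-voom. In edgeR 11 were lower at an unadjusted p under 0.05, against 7.47% of all tested genes. Zfp318, which permits IgD expression from the heavy-chain locus, had 53.2 and 50.3 CPM in WT against 31.3 and 25.6 CPM in Sphk2 KO replicates 1 and 2, a log2 fold change of -0.87 (SE 0.17, edgeR adjusted p = 0.191). Its groups did not overlap, as for Ighd. Also among the 11 were Fcrl5 (-0.76), Btla (-0.73), Cd180 (-0.67), Ly6d (-0.72), H2-Ob (-0.73), Bcl11a (-0.68), Mef2c (-0.70), Tnfrsf13b (-0.59) and Cd38 (-0.70) in log2 fold change. Swap70 had an estimate of -0.26. Cd24a, which neutrophils also express, had 266.1 and 347.0 CPM in WT and 376.7 and 412.0 CPM in Sphk2 KO.

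Plasma-cell genes outside the 30 had mixed estimates. Of 12, 11 were tested, 7 estimates were negative and 4 positive, with a median of -0.16. None was called by edgeR, DESeq2 or limma-voom, and at an unadjusted p under 0.05 edgeR counted 0 lower, DESeq2 2 and limma-voom 2. The most negative estimates were those of Txndc5 (-0.80) and Irf4 (-0.70). Edem1, a degradation factor of the endoplasmic reticulum, had 258.0 and 215.0 CPM in WT and 253.8 and 221.1 CPM in Sphk2 KO. Xbp1, the secretory transcription factor, had 220.9 and 204.4 CPM against 199.8 and 221.4 CPM, and Sec11c had an estimate of 0.055. All 3 are expressed by many cell types. Of narrower plasma-cell genes, the surface proteoglycan Sdc1 had 28, 19, 23 and 7 counts in WT replicates 1 and 2 and Sphk2 KO replicates 1 and 2. Tnfrsf17, the BCMA receptor, had 7, 1, 5 and 1 counts, and Prdm1, the master regulator, had 152, 91, 67 and 113. Txndc5, Irf4, Sdc1, Tnfrsf17 and Prdm1 were singled out after their values were seen.

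Of the 8 genes of B-cell precursors, all but Cd93 were scarce. The surrogate light-chain genes Vpreb2 and Igll1 had 0 counts in all 4 libraries, where 3 counts would be 0.133 to 0.216 CPM. Vpreb1 had 1 count in Sphk2 KO replicate 2. The recombinase genes Rag1 and Rag2 had 2, 6, 4 and 2 counts and 0, 0, 1 and 0 counts. Dntt, which adds bases at antibody and T-cell receptor joints, stood at 25 and 19 counts for WT against 3 and 4 for Sphk2 KO, an estimate of -2.76 (SE 0.51) with an edgeR adjusted p of 0.191. Il7r had an estimate of -0.71, at 2.07 to 4.40 CPM. Cd93, also expressed by myeloid cells, had 114.5 and 44.5 CPM in WT and 46.0 and 29.2 CPM in Sphk2 KO, an estimate of -1.09 with overlapping groups. Of these 8 genes, 3 were tested by edgeR and 0 called by any of the 3 tools, with Dntt and Cd93 lower at an unadjusted p under 0.05.

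Signalling proteins that act under the B-cell receptor and also serve myeloid receptors had mostly positive estimates. Of 20, 15 were positive and 5 negative, with a median of 0.18 and 0 called by edgeR, DESeq2 or limma-voom. The kinase Syk had 1507 and 2021 CPM in WT and 1899 and 2098 CPM in Sphk2 KO, and Lyn 726.6 and 964.6 CPM against 945.4 and 1103 CPM. Pik3cd had 678.2 and 954.0 CPM against 978.2 and 1066 CPM. At an unadjusted p under 0.05, 2 genes were lower in edgeR, among them Rasgrp3 (-0.63), a Ras exchange factor.

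Markers of other cells were measured beside the 30 genes, and their part in the B-cell result was not tested. The 8 MHC class II genes, which B cells and other antigen-presenting cells express, summed to 1419 and 1302 CPM in WT and 1030 and 586.4 CPM in Sphk2 KO. All 8 were lower in both Sphk2 KO libraries, against 22.7% of all tested genes. Their log2 fold changes were -0.74 for H2-Ab1, -0.70 for H2-Aa, -0.82 for H2-Eb1 and -0.75 for Cd74. Ciita was at -0.82, H2-DMa at -0.76, H2-DMb1 at -0.79 and H2-DMb2 at -0.76. The order of the 4 sums was the same as for Cd79a. T-cell and EL4 markers summed to 105.7 and 77.1 CPM in WT and 48.3 and 39.5 CPM in Sphk2 KO, with 16 of 17 tested estimates negative and a median of -1.36. DESeq2 called Thy1 and Tcf7. None of those 18 markers was at 0 in all libraries. Of those markers, 10 were lower at an unadjusted p under 0.05 in edgeR, against 7.47% of all tested genes. They were Cd3e (-1.498), Cd3g (-1.36), Trac (-2.25), Thy1 (-2.43), Lck (-0.95), Lat (-1.54), Zap70 (-1.83), Cd28 (-2.52), Tcf7 (-1.86) and Bcl11b (-1.82). The abundant Cd2 was at -0.45 and Cd3d at 0.11.

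Plasmacytoid dendritic cells share Tcf4, Spib and Ly6d with B cells. Their 10 markers summed to 252.6 and 273.5 CPM in WT and 243.9 and 232.0 CPM in Sphk2 KO, with Tcf4 at -0.49, Ly6d at -0.72, Runx2 at 0.072 and Lair1 at -0.010. Siglech, their defining receptor, was near 0, with 16 and 7 counts against 3 and 3. Conventional dendritic cell markers summed to 167.4 and 205.9 CPM against 177.4 and 199.2 CPM, with Flt3 at -1.27, Batf3 at -1.23, Itgax at 0.14, Ccr7 at -0.79 and Clec9a at -0.0050. Monocyte and macrophage markers summed to 2517 and 1695 CPM against 1634 and 1095 CPM, with Fn1 at -1.34, Ccr2 at -1.08 and Csf1r at 0.018. Fn1 alone held 1170 and 503.5 CPM of the WT sums and 504.2 and 156.8 CPM of the Sphk2 KO sums. The genotypes overlapped for 13 of the 15 markers, and the median log2 fold change of those tested was -0.235. None of these 3 lists, nor MHC class II, held a gene called by edgeR, DESeq2 or limma-voom.

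MDSC and neutrophil markers ran opposite, at 23270 and 30450 CPM in WT and 36210 and 41600 CPM in Sphk2 KO, with 12 of 14 estimates positive. S100a9 was at 0.74, S100a8 at 0.75, Csf3r at 0.31, Ly6g at 0.89, Mmp8 at 0.98, Retnlg at 0.94, Camp at 0.62 and Mpo at -1.51 in log2 fold change. Erythroid markers summed to 64.9 and 194.0 CPM against 331.5 and 580.2 CPM, with Hbb-bs at 2.10, Hba-a1 at 1.48, Hba-a2 at 1.64, Alas2 at 0.95 and Slc4a1 at 2.19. Mast cell and basophil markers summed to 49.0 and 64.9 CPM against 88.7 and 106.7 CPM, with Kit at 0.98, Mcpt8 at 0.051 and Ms4a2 at -0.068. Natural killer markers summed to 9.06 and 4.40 CPM against 4.91 and 3.82 CPM, with Nkg7 at -0.69, Gzma at -1.03 and Prf1 at -0.39. Platelet markers summed to 21.6 to 27.4 CPM over the 4 libraries, with Itga2b at -0.028, Gp9 at -0.0080 and Ppbp at -0.43. The 4 mesothelial markers, none tested, summed to 0.477 and 1.15 CPM against 0.214 and 0.577 CPM, and Upk3b, Msln and Wt1 were the highest of them. Neither edgeR nor limma-voom called a gene of these lists, whereas DESeq2 called Mmp8, Retnlg, Slc4a1 and Kit.

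**Figure D5:**
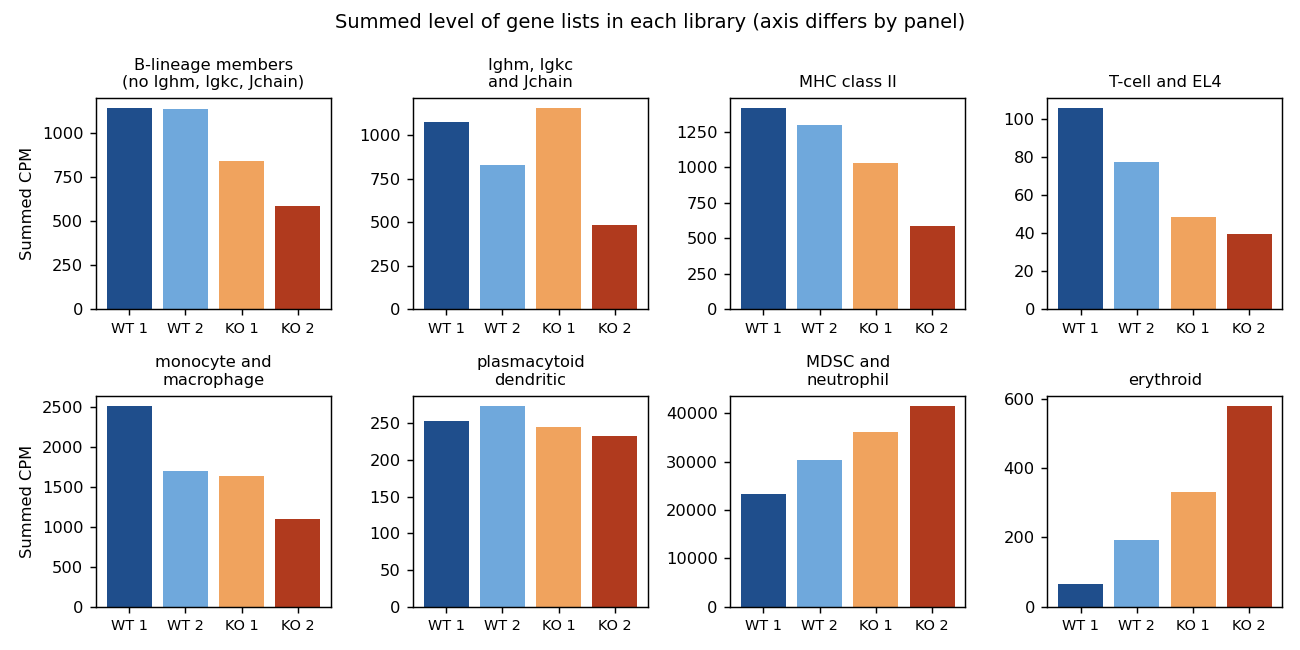
Summed CPM of 8 gene lists, a panel for each with its own axis from 0, with 1 bar per library. The B-lineage, MHC class II and T-cell sums are lowest in Sphk2 KO replicate 2, where the neutrophil and erythroid sums are highest.

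Sphk2 lies on chromosome 7, and 6 of the 30 genes lie on the same chromosome in the GRCm38 annotation. Cd37 is nearest at 0.4 Mb and 20 tested genes away, then Spib at 1.1 Mb, Siglecg at 2.3 Mb, Cd22 at 14.8 Mb, Pou2f2 at 20.6 Mb and Cd79a at 20.8 Mb. The 6 genes had a median log2 fold change of -0.70, and the 24 genes on other chromosomes one of -0.67. The 30 genes occupy 15 chromosomes.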

How the data were processed

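RNA from sorted MDSCs of 2 WT and 2 Sphk2 KO libraries was poly(A)-selected and sequenced as paired ends from a directional kit, per the labels' protocols. The authors deposited raw counts per Ensembl gene ID in a table of 55416 IDs. Trim Galore, STAR, featureCounts and DESeq2 with build GRCm39 are named in the submitters' processing notes. Their versions, the annotation release and the settings for strand and multiple matches could not be taken from the sources used here. If counting ignored strand, reads of overlapping genes on opposite strands cannot be told apart, which touches Cd22, Cd37, Cd55, Cd72, Cxcr5, Pax5 and Bach2.

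A symbol was matched to 52083 IDs. The test was edgeR 4.0.16 under R 4.3.3 (filterByExpr, TMM, glmQLFit, glmQLFTest, genotype as the only term), with Benjamini-Hochberg adjustment over 16566 genes and a threshold of 0.05. All adjusted p-values are from that fit unless another tool is named. Library totals and the number of libraries limit the precision. Counts of replicates were compared by chi-square, which per degree of freedom came to 29.3 in WT and 18.9 in Sphk2 KO, so none is a repeat deposit. Exon lengths, distances and overlaps came from a GRCm38 annotation, joined by gene ID. The test code was checked on simulated data.

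The genes and all lists were chosen with earlier results of these data known. All 30 genes are given. Of each other list, the up to 3 genes with the highest mean CPM and those with an unadjusted p under 0.05 are named. Values of 3 such genes are not reported here. Alternatives were DESeq2 1.42.0, limma-voom (limma 3.58.1), RLE factors, library size alone, no filter, a stricter filter, robust empirical Bayes, a replicate block and leaving out each library.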

Additional observations from a re-analysis of the deposited data

How the results depend on the processing

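Against 18 genes called over the whole table, DESeq2 called 76, no filter on low counts 615, the replicate block 2637, and fits without 1 library 54 to 1061. Against 0 of the 30 genes, no filter called 12, the replicate block 24, and fits without 1 library 0 to 16. The other 5 settings called 0 of the 30 genes and 15 to 19 genes in all. The replicate numbers are shared by the genotypes, and the labels neither state nor exclude a pairing. With 2 pairs and no batch in the labels, the numbers were not used to pair libraries in the main fit. Same-numbered libraries deviated together with a correlation of 0.44 across genes, a hint from the data only. The median of the 30 genes was -0.69 with the block and -0.83 to -0.65 under the other settings that kept all libraries. Library size alone gave that -0.83 and moved the median of all tested genes to -0.17. Leaving out 1 library gave -0.97 to -0.43 for the median, and -0.98 to -0.061 for the log2 ratio of the summed B-lineage genes (-0.45 with all libraries). The sign of 5 genes turned. Jchain was at -0.012 in limma-voom and -0.11 with library size alone, and Cd37 at -0.0090 with library size alone. Without 1 library, Jchain ran from -0.50 to 0.49, Cd37 from -0.034 to 0.36, Cxcr5 from -0.25 to 0.22, Igkc from -0.93 to 0.32 and Ighm from -1.06 to 0.25. The cause was not tested. A library left alone in its group was assumed to vary like the other group. Low counts limited the precision for Vpreb3 and Mzb1, at 10 to 39 a library.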
